A study of Mus musculus with 22 samples.

Results

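Total poly(A) mRNA of mouse liver was compared between 4 h following tunicamycin (Tm) injection and the 0 h group, in 6 of the 22 samples of the series, 3 libraries per group. The unit of measurement is the locus, a set of overlapping transcripts assembled under a Cufflinks identifier. Of the 39897 loci in the table, 39854 had a completed estimate in all 6 libraries and were kept, and 12612 of these (31.6%) carried enough fragments to be tested. The loci that rose and fell are described by the size of their change, by their abundance and by their length. Since the deposited tables link these identifiers to neither genes nor positions, 4 loci are named by identifier only, without a known function, and the liver label could not be checked against marker genes.

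The mice were 5-week-old C57BL/6 males. The 4 h group received 0.1 mg/kg Tm intraperitoneally in the morning and was culled at noon. The 0 h mice were culled an hour after the morning injections. The labels list tunicamycin for them as well, and a figure legend of the study includes 0 h among the collection times of injected mice, whereas the methods call them controls without stating whether they were injected. Time of day therefore changed together with time after injection, and these cannot be told apart. The libraries at 2 h, from mice injected in the same way, entered the fit only to help estimate the spread and are given where they place the 4 h change in time.

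Tm blocks the first step of N-linked glycosylation, the attachment of sugar chains to proteins entering the endoplasmic reticulum (ER). Unglycosylated proteins misfold there and activate the unfolded protein response, a set of signaling branches that lower protein synthesis through phosphorylation of the initiation factor eIF2α and switch on transcription factors that raise the mRNAs of chaperones and degradation enzymes. The hepatocyte, the main cell of the liver, exports large amounts of plasma proteins through the ER, so a small number of very abundant mRNAs normally makes up much of its mRNA pool. Total mRNA level depends on transcription and on decay, and the libraries do not separate them. In bulk tissue, fewer cells of a type and less RNA per cell cannot be told apart either.

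The 0 h libraries held 11282111, 17283500 and 10556153 counted fragments and the 4 h libraries 12027031, 12377392 and 11636552. The depths of the groups overlapped, and the second 0 h library was the deepest. Pearson correlations of log2 CPM (counts scaled to library size, with TMM factors) across the tested loci, which are not independent of each other, were from 0.983 to 0.985 between 0 h libraries, from 0.984 to 0.989 between 4 h libraries and from 0.949 to 0.958 between the groups. The median locus had an SD of log2 CPM of 0.164 among the 0 h libraries and 0.152 among the 4 h libraries. The common biological coefficient of variation in edgeR was 0.136.

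At 4 h, 641 loci rose and 436 fell at least 2-fold with a Benjamini-Hochberg adjusted p under 0.05 (edgeR, quasi-likelihood test). They were 5.08% and 3.46% of the loci tested, and together 8.54%. Most of the transcriptome moved little, since 75.1% of the tested loci lay within 1.5-fold of their 0 h level. The median log2 fold change was -0.02 (SD 0.70 across loci), with the 5th and 95th percentiles at -0.94 and 1.03. Among the 1077 called loci, the 3 libraries at 4 h lay wholly above or wholly below the 3 at 0 h in 1054, which comprised 629 of the rising and 425 of the falling loci, whereas the same held for 45.4% of all tested loci (24.4% above and 21% below). The balance of directions depended on the scaling. With upper-quartile scaling, which lowered the median log2 fold change of all loci by 0.12, there were 500 rising (3.96%) and 618 falling (4.9%) loci, so the rising share of the calls dropped from 59.5% to 44.7%. All 500 of these rising loci and all 436 falling loci of the TMM fit were called in both.

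**Figure D1:**
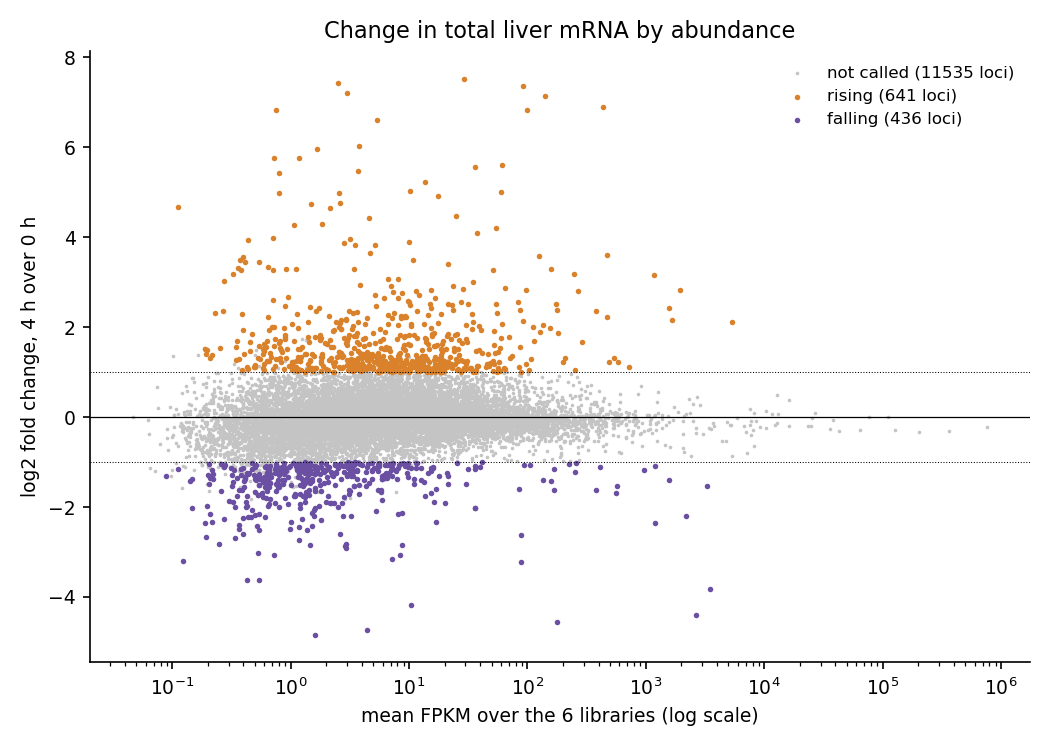
Log2 fold change of 4 h over 0 h (vertical axis) against mean FPKM over the 6 libraries (horizontal axis, log scale), with 1 point per tested locus; orange points are the 641 rising loci, purple points the 436 falling loci and gray points the other 11535, and dotted lines mark a 2-fold change. The rises reach further from the axis than the falls, and the purple points are densest at the left.

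The rises reached larger sizes than the falls. Of the rising loci, 483 (75.4%) changed from 2 to under 4-fold, 93 (14.5%) from 4 to under 8-fold, 32 from 8 to under 16-fold and 33 (5.15%) 16-fold or more. Of the falling loci, 369 (84.6%) lay in the lowest of these classes, 53 (12.2%) in the next, 9 in the class from 8 to under 16-fold and 5 (1.15%) in the highest. These classes were cut on the tested change itself and are a description. The 33 steepest rises had a median log2 fold change of 5.43, or 5.03 with the 2 loci that had no fragment at 0 h set to their lower bounds. For 1 of these the lower bound was 15.7-fold, so its place in the highest class rests on the fitted fold over 0 fragments. The 5 steepest falls had a median of -4.57. When the null hypothesis was a change of 2-fold rather than none, 231 rising (1.83%) and 51 falling loci (0.404%) passed at a Benjamini-Hochberg adjusted p under 0.05 (edgeR, glmTreat), 2.24% of those tested. A change below 2-fold was common among loci past the adjusted p: 2244 rising (17.8%) and 1595 falling loci (12.6%), or 30.4% of those tested, passed the edgeR quasi-likelihood test without a fold minimum.

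The spread between libraries differed between the size classes. For the rising loci the median SD of log2 CPM among the 0 h libraries was 0.19 in the class from 2 to under 4-fold, 0.29 and 0.33 in the middle classes and 0.41 in the class of 16-fold or more. For the falling loci the same medians were 0.27, 0.50, 0.64 and 0.68. These SDs include counting error, which is large for loci with few fragments and was not separated from the spread between livers. The median falling locus had a mean of 53.8 fragments per library, against 236 for the median rising locus and 207 for the median tested locus.

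At 2 h the medians of the rising loci lay above 0 in every size class, while those of the falling loci had both signs. The median log2 fold change of 2 h over 0 h, in order of increasing size class at 4 h, was 0.33, 0.77, 0.90 and 1.48 for the rising loci. For the falling loci it was -0.18, -0.27, 0.21 and 0.45. Over all tested loci the median was 0.0015. The 4 h and 2 h changes share the 0 h libraries, which can bring some agreement by itself, and no test was made of this ordering. In heavy polysomal RNA, the fractions in which an mRNA carries more than 3 ribosomes, only the authors' group means were used, with no replicates and no test. The polysomal mean at 0 h is over 3 read groups, while the labels list 2 such libraries, so it includes a read group that is not among the listed samples. On the log2 scale with a pseudocount of 1, the median change of these polysomal means at 4 h over 0 h was 1.28, 2.29, 3.39 and 4.41 in the 4 rising classes, beside 1.24, 2.28, 3.21 and 4.66 for the authors' means of total mRNA. In the falling classes the polysomal medians were -1.01, -2.07, -2.84 and -4.07, beside -1.22, -2.12, -2.97 and -4.40 in total mRNA.

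Rising and falling loci differed in abundance. FPKM, in which fragments are scaled to the length of the locus and to library size, was used to set levels of different loci side by side. The length is an effective one, and at the shortest loci it is so small that FPKM is inflated: the class of 1000 FPKM and over held 103 loci, of which 81 were among the shorter loci (length classes 1 to 3 of 10), and its least relative length was 2.26e-05 times that of the median locus. FPKM levels in that class are therefore not comparable with the others. By fragments the class was nonetheless abundant. Its median locus had a mean of 17697 per library, against 3338 from 100 to under 1000 FPKM and 207 over all tested loci. The rising loci had a median of 6.41 mean FPKM over the 6 libraries (25th to 75th percentile 2.27 to 17.7), close to the 5.93 of all tested loci (1.68 to 18.5). The falling loci had a median of 1.502 (0.667 to 4.86). The mean over both groups was used so that neither direction was favored by the choice of scale.

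Among loci under 1 FPKM, 88 of 2069 rose (4.25%) and 153 fell (7.39%). From 1 to under 10 FPKM, 305 of 5770 rose (5.29%) and 224 fell (3.88%). From 10 to under 100 FPKM, 216 of 3969 rose (5.44%) and 38 fell (0.957%). The rising share thus stayed near its background of 5.08% in these classes, while the falling share was highest under 1 FPKM and lowest from 10 to under 100 FPKM. From 100 to under 1000 FPKM, 27 of 701 loci rose (3.85%) and 14 fell (2.00%). At 1000 FPKM and over, 5 of 103 rose (4.85%) and 7 fell (6.80%), which returned the falling share to about that of the lowest class, though on 7 loci. Upper-quartile scaling kept this shape, with 10.0%, 5.56%, 1.59%, 2.85% and 6.80% of loci falling from the lowest to the highest class. 

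The whole distribution of changes, and not the calls alone, differed between abundance classes. The median log2 fold change was -0.23 under 1 FPKM, 0.01 from 1 to under 10, 0.04 from 10 to under 100, -0.08 from 100 to under 1000 and -0.16 at 1000 FPKM and over. The middle classes lay highest, and the lowest and highest classes lay below the median of all loci. The scale shift by the upper quartile moved every class down together, to -0.35, -0.11, -0.09, -0.20 and -0.28. The loci whose libraries did not overlap showed the same split by sign. From 10 to under 100 FPKM, 32.2% of loci lay wholly above 0 h and 20.2% wholly below, whereas at 1000 FPKM and over 10.7% lay above and 35.9% below.

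Few fragments limited the lowest class. The count filter could be passed through the libraries of 1 time point alone. A falling locus with few fragments could thus be tested through its 0 h or 2 h libraries, where it was high, and a rising one through its 4 h libraries. The shares and the median change of the lowest class can be tilted by this, which was not tested, and are a description. Loci under 1 FPKM had a median of 20.7 fragments per library and a median SD of log2 CPM of 0.36 at 0 h, against 0.11 from 10 to under 100 FPKM. Grouped by mean fragments instead of FPKM, falling loci were 7.03% of the 2975 loci under 50 fragments, 2.90% of 6110 from 50 to under 500, 1.06% of 3195 from 500 to under 5000 and 4.82% of 332 at 5000 and over. Rising loci made up 4.81%, 5.14%, 5.13% and 6.02% of these classes. The falling share was thus lowest in an intermediate class by either measure.

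**Figure D2:**
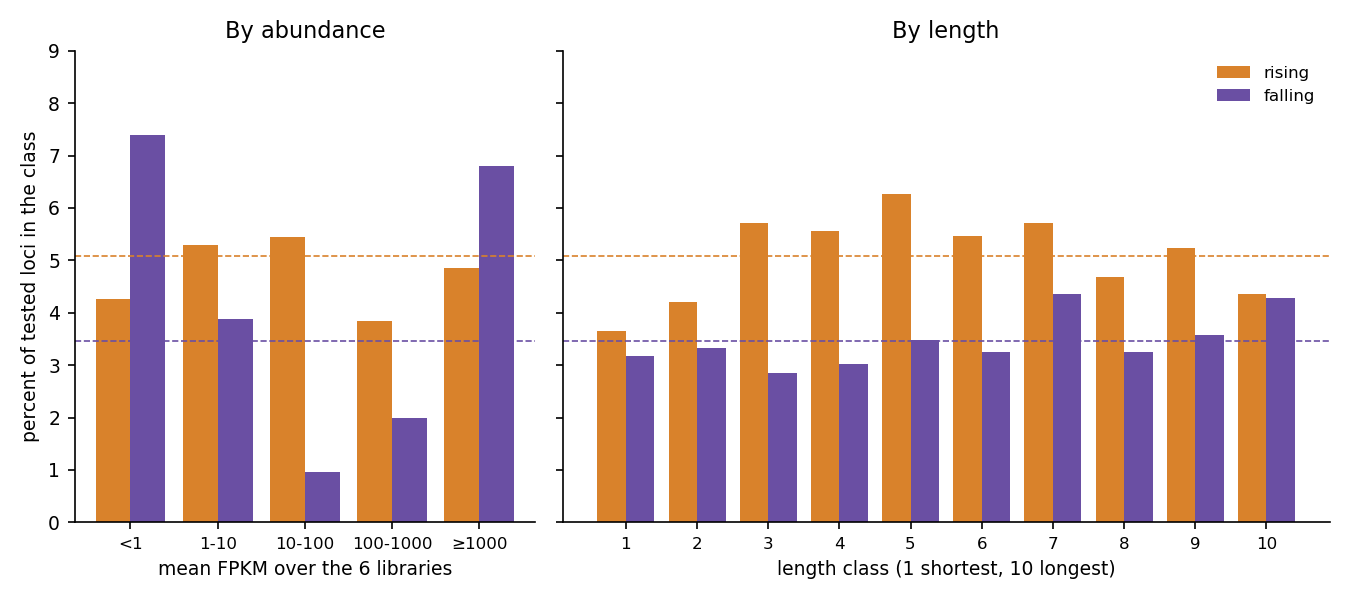
Percent of the tested loci of each class that rose (orange) or fell (purple) at least 2-fold at 4 h, by mean FPKM over the 6 libraries (left) and by length class (right, class 1 shortest and 10 longest); dashed lines give the percent over all tested loci, 5.08% rising and 3.46% falling. Falling loci are most frequent below 1 FPKM (7.39%) and at 1000 FPKM and over (6.80%), and both shares vary less with length than the falling share does with abundance.

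In the class of 1000 FPKM and over, 12 of 103 loci were called, and a call requires a 2-fold change. The 5 rising loci of at least 1000 FPKM had log2 fold changes from 2.12 to 3.16, with means from 14600 to 73124 fragments per library. The 7 falling loci of this class fell by 1.09 to 4.403 on the log2 scale and had means from 4576 to 69006 fragments. Of the 7, 5 belonged to the shortest of 10 length classes, where FPKM is inflated because the length in its denominator is small.

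XLOC_017764 gained the most CPM of all rising loci. Its normalized CPM was 1778, 1203 and 1649 in the 0 h libraries, 4612, 3788 and 3009 in the 2 h libraries and 10029.7, 11484 and 11573 in the 4 h libraries. No library of one time point overlapped with another, and the levels rose in order of time. The log2 fold change at 4 h over 0 h of 2.84 had a standard error of 0.19 and a Benjamini-Hochberg adjusted p of 1.14e-06 (edgeR, quasi-likelihood test), while the log2 fold change at 2 h over 0 h was 1.30. Its FPKM rose from 489.7 ± 97.7 to 3373 ± 363 (SD, n = 3 each). By counted fragments it was number 15 of the tested loci, and its relative length of 1.08 was that of a typical locus. The authors' polysomal means changed by 2.82 on the log2 scale, beside 2.84 for their means of total mRNA.

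XLOC_034655 lost the most CPM of the falling loci. It held 6086, 8800 and 10747 CPM at 0 h and 3081, 2561 and 3152 CPM at 4 h. The groups did not overlap, and the 0 h libraries varied more among themselves than the 4 h libraries. Its log2 fold change of -1.54 had a standard error of 0.23 and a Benjamini-Hochberg adjusted p of 0.000384 (edgeR, quasi-likelihood test). At 2 h the CPM was 11649, 8377 and 15209, so that no 2 h library lay as low as any 4 h library. Its FPKM fell from 4921 ± 1589.9 to 1703 ± 281 (SD, n = 3 each), and the relative length was 0.586.

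XLOC_025543 had the largest log2 rise of the rising loci that averaged 50 or more fragments per library. The 0 h libraries held 0, 1 and 1 fragments, the 2 h libraries 10, 9 and 5, and the 4 h libraries 90, 171 and 139. It was thus near absent at 0 h, and every 2 h library lay between the groups. The ratio of scaled fragments at 4 h over 0 h was 209.9 with a 95% exact counting interval from 57.7 to 1739, which covers counting error only. The fitted log2 fold change of 7.44 had a standard error of 0.48 and a Benjamini-Hochberg adjusted p of 1.14e-06 (edgeR, quasi-likelihood test). The locus could pass the count filter only with its 4 h libraries, where it was high. This fold, over 2 fragments in the 0 h group, and its p are therefore a description. At 4 h the level of the locus was still modest, 5.01 ± 2.36 FPKM (SD, n = 3).

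XLOC_001822 had the largest log2 fall by the same rule. Its CPM was 29.1, 13.05 and 14.1 at 0 h and 0.427, 1.06 and 0.550 at 4 h. The groups stood far apart, and the first 0 h library was about 2 times the others. The log2 fold change of -4.74 had a standard error of 0.90 and a Benjamini-Hochberg adjusted p of 0.00195 (edgeR, quasi-likelihood test). The 2 h libraries held 0.9501, 25.6 and 13.4 CPM, so that 1 of them lay at the 4 h level and the other 2 at the 0 h level. Its FPKM fell from 8.43 ± 4.11 to 0.400 ± 0.199 (SD, n = 3 each).

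**Figure D3:**
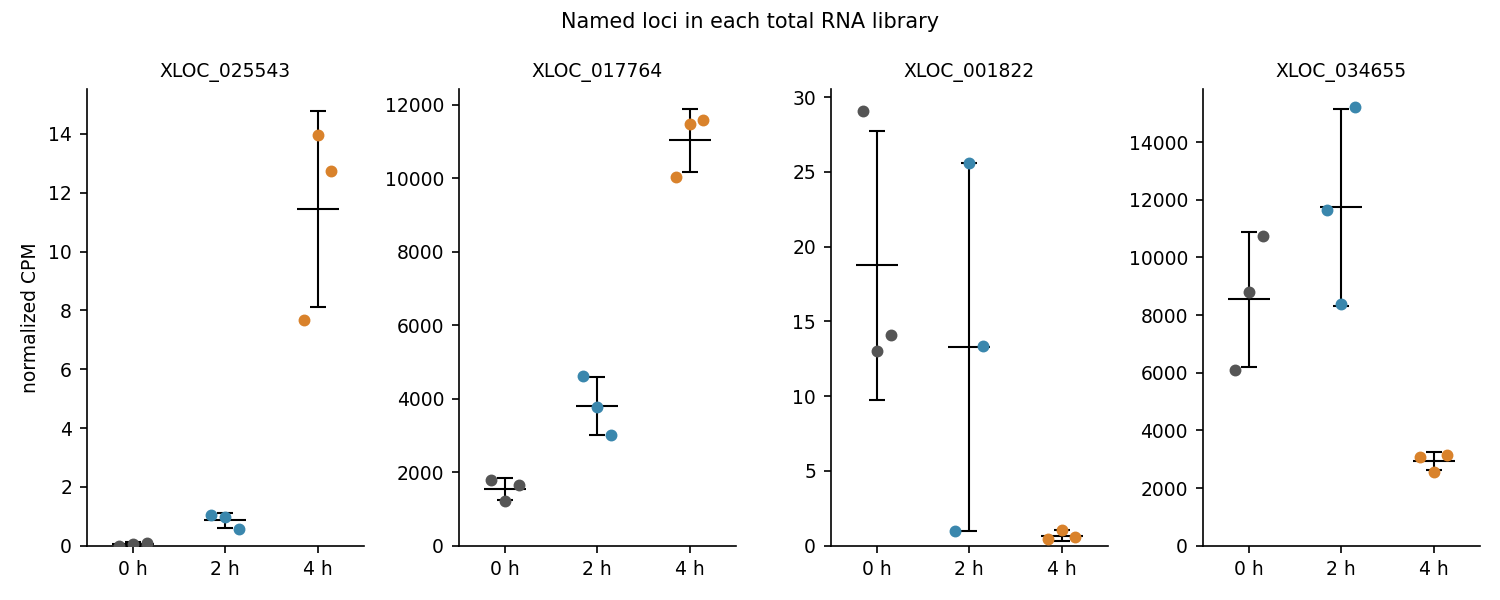
Normalized CPM (vertical axes, starting at 0) of the 4 named loci in each total RNA library at 0 h (gray), 2 h (blue) and 4 h (orange); points are libraries, and bars are the mean ± SD of 3. The 4 h libraries of XLOC_025543 and XLOC_017764 lie above all others, and those of XLOC_034655 lie below all others.

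The length behind FPKM was recovered as scaled fragments over FPKM and expressed relative to the median tested locus. It is an effective length after the bias correction of Cuffdiff and not a transcript length. The median relative length was 1.001 for the rising loci (25th to 75th percentile 0.628 to 1.54) and 1.09 for the falling loci (0.604 to 1.73), against 0.585 to 1.601 for all tested loci. The middle parts of these distributions nearly coincided.

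The tested loci were divided into 10 length classes of equal size, from class 1 (shortest) to class 10 (longest). Rising loci were least frequent in class 1, with 46 of 1261 loci (3.65%), and most frequent in class 5, with 79 of 1262 (6.26%). In class 10, 55 of 1262 rose (4.36%). Falling loci were from 2.85% (36 loci, class 3) to 4.36% (55 loci, class 7), with 40 (3.17%) in class 1 and 54 (4.28%) in class 10. In this fit the shares varied less than 2-fold over the range of length in both directions. The order of the shortest and the longest class turned with limma on log2(FPKM + 1), which gave 39 rising and 25 falling loci in class 1 and 26 rising and 10 falling loci in class 10. Without the third 0 h library the order turned for the rising loci, with 52 in class 1 and 47 in class 10. It did not turn for the falling loci, with 34 and 66. Shorter loci had fewer fragments and higher FPKM, with medians of 132 fragments and 19.6 FPKM in class 1 and 276 fragments and 2.53 FPKM in class 10, so length was also examined within classes of fragments.

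At matched counts, the relation of length to the calls was uneven. From 500 to under 5000 fragments, 23 of 862 loci rose in length classes 1 to 3 (2.67%), 75 of 1329 in classes 4 to 7 (5.64%) and 66 of 1004 in classes 8 to 10 (6.57%). From 50 to under 500 fragments the rising shares were 4.72%, 6.20% and 4.24%, with no such order, while the falling shares were 1.75%, 2.76% and 4.04%. Under 50 fragments the rising share had the opposite order, with 5.52%, 4.98% and 3.45%. At 5000 fragments and over the rising shares were 5.88%, 5.49% and 8.16%, and the last of these rests on 4 of 49 loci. The falling shares were 6.63%, 8.33% and 5.52% under 50 fragments, 0.928%, 0.752% and 1.59% from 500 to under 5000, and 6.72%, 3.05% and 6.12% at 5000 and over. The shares had no common order with length across the classes of fragments, and no test was made of these differences. At a fixed number of fragments a longer locus has a lower FPKM, so that these contrasts also hold a difference in abundance.

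Within classes of FPKM the pattern was again mixed. From 10 to under 100 FPKM, 4.08% of loci rose in length classes 1 to 3, 6.08% in classes 4 to 7 and 7.07% in classes 8 to 10. Under 1 FPKM the same shares were 7.20%, 4.75% and 3.03%. Falling loci under 1 FPKM were 7.60%, 8.81% and 6.07%, and from 10 to under 100 FPKM they were 0.940%, 0.826% and 1.33%. The gap in falling loci between low and intermediate abundance was thus present at short, intermediate and long loci alike.

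The change of all loci with length was of the size of differences between single libraries of 1 group. The median log2 fold change of 4 h over 0 h was -0.09 in length class 1, -0.06 in class 10 and between -0.04 and 0.03 in the others. In class 10 the 0 h libraries deviated from the other 2 of their group by medians of 0.16, 0.03 and -0.18 on the log2 scale, and the 4 h libraries by 0.11, 0.01 and -0.11. In class 1 the 0 h libraries deviated by -0.08, -0.01 and 0.11 and the 4 h libraries by -0.06, 0.01 and 0.06. The change with time in class 1 was larger in size than the deviation of 5 of the 6 libraries, and in class 10 it was smaller than that of the first and the third library of each group. In both groups the first and the third library deviated in opposite directions at short and long loci, while the second deviated little.

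**Figure D4:**
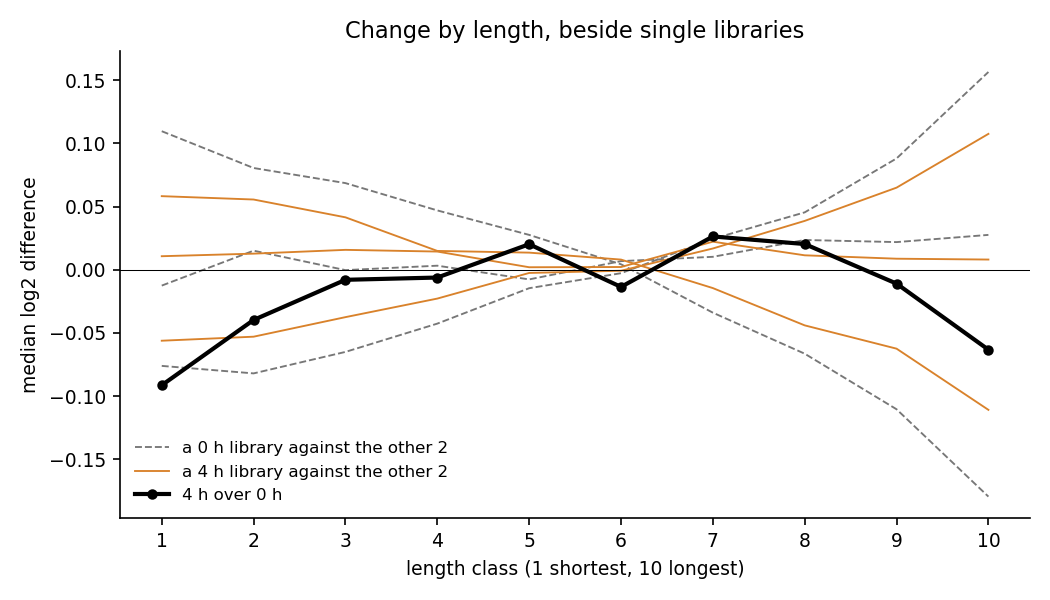
Median log2 difference of the tested loci (vertical axis) by length class (horizontal axis, 1 shortest and 10 longest) for 4 h over 0 h (thick black line with points) and for each library against the mean of the other 2 of its group (gray dashed lines, 0 h; orange lines, 4 h). The change with time stays between -0.09 and 0.03, while single libraries reach -0.18 and 0.16 in class 10 and the second library of each group stays near 0.

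The share of the mRNA pool held by the called loci is a description, since they were called on these libraries. The rising loci held 2.501%, 2.13% and 2.43% of the fragments on all kept loci at 0 h, and 8.404%, 9.38% and 9.03% at 4 h. The falling loci held 3.58%, 5.51% and 5.14% at 0 h, and 1.75%, 1.39% and 1.66% at 4 h. Rising loci thus moved from 2.36% ± 0.195 to 8.94% ± 0.494 and falling loci from 4.74% ± 1.03 to 1.602% ± 0.186 (SD, n = 3 each). In summed FPKM the shares at 0 h were lower, and the mean moved from 0.352% to 1.53% for the rising and from 1.13% to 0.308% for the falling loci. In percentage points these changes were 1.18 and -0.824, against 6.58 and -3.14 in fragments.

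A small number of loci carried most of this movement. The gain of the rising loci summed to 65017 CPM, of which XLOC_017764 alone gave 14.6%, the first 10 loci 49.9% and the first 171 loci 90%. The loss of the falling loci summed to 31873 CPM, of which the first 10 gave 69.1% and the first 35 gave 90%. The 5 rising loci of at least 1000 FPKM made up 40.0% of the gain and the 7 falling ones 56.7% of the loss. In contrast, the 88 rising loci under 1 FPKM made up 0.283% of the gain and the 153 falling ones 1.04% of the loss. By size, the class from 4 to under 8-fold carried 49.0% of the gain with 93 loci, whereas the class from 2 to under 4-fold carried 70.5% of the loss.

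The next measures use no call, with 1 value per library. The 100 most counted of the kept loci, ranked in each library by fragments and not per length, held 36.7%, 38.9% and 39.1% of fragments at 0 h and 35.9%, 35.0% and 35.3% at 4 h. The groups did not overlap, with means of 38.2% ± 1.32 and 35.4% ± 0.453 (SD, n = 3 each). The ranking leaves out the skipped loci, 1 of which held from 6.38% to 8.19% of all fragments in the 3 libraries where it was counted. The 10 most counted of the kept loci held 13.1% ± 0.559 and 10.8% ± 0.266, and the 1000 most counted loci 70.2% ± 0.935 and 67.8% ± 0.285, also without overlap. In each case an exact permutation test with both tails gave p = 0.1, the smallest value that 3 against 3 libraries allow, so none could pass 0.05. Over the family of 7 such tests the Benjamini-Hochberg adjusted value of these exact tests was 0.14. In summed FPKM the lower concentration at 4 h was within the overlap of the groups, with 85.9% and 84.6% on the 100 highest loci.

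Fewer loci reached 1 FPKM at 4 h, and more reached 10 FPKM. At least 1 FPKM was reached by 11312, 11223 and 11180 loci at 0 h and by 11136, 11050 and 11135 at 4 h. At least 10 FPKM was reached by 4772, 4785 and 4821 loci at 0 h and by 5076, 5055 and 5030 at 4 h. The groups overlapped at neither threshold (exact permutation test with both tails, p = 0.1 for both). At 100 FPKM the groups overlapped, with 898 ± 39.5 and 923 ± 9.02 loci (SD, n = 3 each). After thinning every library to 9701972 fragments, the number of loci with at least 10 fragments was 12243 ± 111 and 12099 ± 100.2 (SD, n = 3 each), with overlap (exact permutation test, p = 0.3, adjusted 0.35).

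The share of fragments was higher at 4 h on loci from 1 to under 100 FPKM, and lower on loci under 1 FPKM and in the class of 1000 FPKM and over, which is mostly made up of loci with a short effective length. Loci from 10 to under 100 FPKM held 28.9%, 27.8% and 27.5% of fragments at 0 h and 30.5%, 31.0% and 30.5% at 4 h. Loci of at least 1000 FPKM held 28.9%, 31.5% and 31.7% at 0 h and 28.2%, 27.6% and 28.1% at 4 h. The groups did not overlap in either class, and the first 0 h library came closest to the 4 h libraries in both. Loci from 1 to under 10 FPKM held 8.75% ± 0.507 at 0 h and 9.43% ± 0.0808 at 4 h, and loci under 1 FPKM 0.506% ± 0.0440 and 0.445% ± 0.0157 (SD, n = 3 each), both without overlap. Loci from 100 to under 1000 FPKM held 31.6% and 31.3% on average, with overlap. Of the fragments outside the called loci, the class from 10 to under 100 FPKM held 28.9% ± 0.531 and 31.3% ± 0.335, the class from 1 to under 10 FPKM 8.75% ± 0.432 and 9.54% ± 0.0659, and the highest class 29.8% ± 1.11 and 26.9% ± 0.398 (SD, n = 3 each), again without overlap. Under 1 FPKM and from 100 to under 1000 FPKM these shares overlapped. The loci left out were called on the same contrast, and these values are a description. The classes were compared after their shares were seen.

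**Figure D5:**
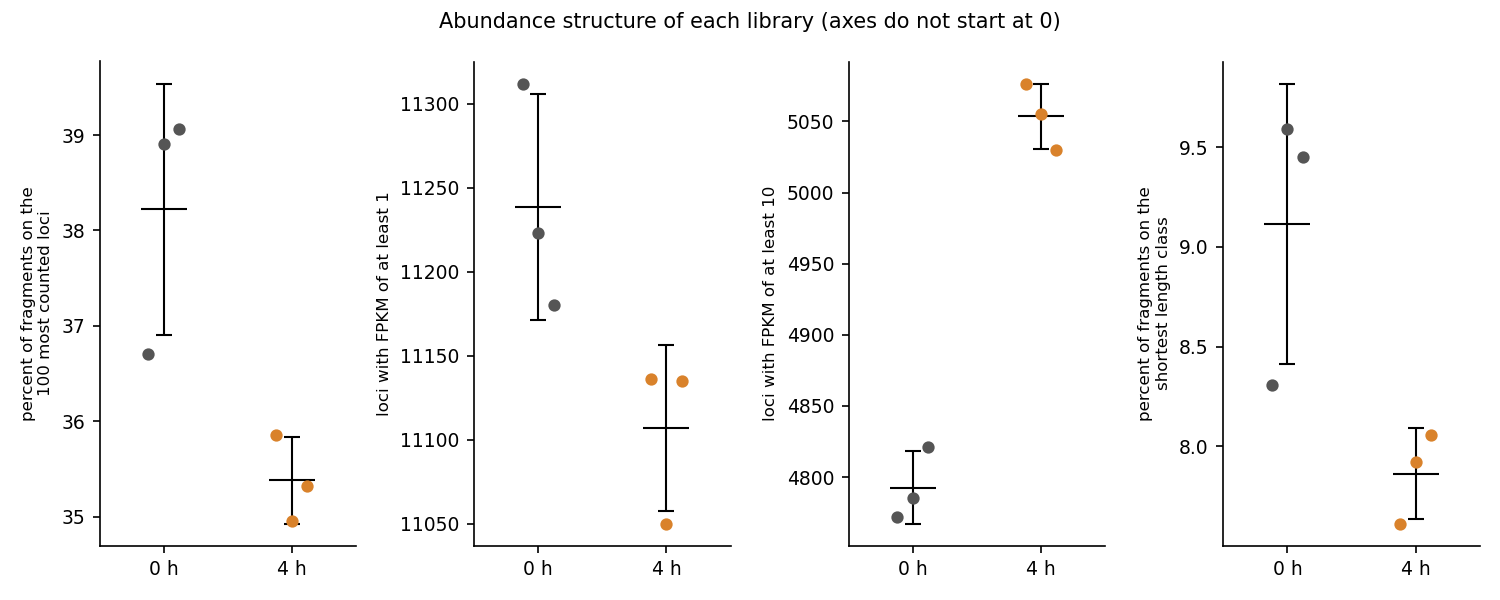
Values of each library at 0 h (gray) and 4 h (orange) for the percent of fragments on its 100 most counted kept loci, the number of loci with at least 1 FPKM and at least 10 FPKM, and the percent of fragments on length class 1, the shortest loci; points are libraries, bars are the mean ± SD of 3, and the vertical axes do not start at 0. The groups do not overlap in any panel, and the count of loci with at least 10 FPKM is the measure that is higher at 4 h.

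Short loci held a smaller part of the pool at 4 h. Length class 1 held 8.31%, 9.59% and 9.45% of fragments at 0 h and 7.61%, 7.92% and 8.05% at 4 h, without overlap (exact permutation test with both tails, p = 0.1, adjusted 0.14). Of the fragments outside the called loci, class 1 held 8.47% ± 0.305 at 0 h and 8.24% ± 0.295 at 4 h (SD, n = 3 each), and there the groups overlapped. The called loci were chosen on the same contrast, so that leaving them out can lower a difference by itself, and nothing is read from this overlap. Class 10 held 6.86%, 6.04% and 5.55% at 0 h and 6.65%, 6.30% and 6.204% at 4 h, with overlap (exact permutation test, p = 0.6). The third 0 h library, which was low on long loci, decided the sign of this difference: it was 0.24 percentage points with all libraries and -0.064 without that library.

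Loci without a fragment in 1 group were mostly too thin to test. Of the kept loci, 18123 had no fragment in any of the 6 libraries, and 9119 others had at least 1 but were not tested. In all 3 libraries at 0 h, 19401 loci were at 0, of which 1278 had a fragment at 4 h and 101 had more than 3. In all 3 at 4 h, 19675 were at 0, of which 1552 had a fragment at 0 h and 129 had more than 3. Loci at 0 in 1 group only were thus similar in number in both directions, with at most 73 fragments over the 4 h group and 23 over the 0 h group. The filter was passed by 2 of the loci absent at 0 h. Since they could pass only through the libraries where they were present, their calls are a description. With 45 and 73 fragments at 4 h they were at least 15.7-fold and 25.5-fold higher, against a floor of 3 fragments over the 0 h group.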

How the data were processed

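Total liver RNA was sequenced as stranded poly(A) libraries from 3 mice per time point. Per the submitters' notes and methods, the authors aligned single-end reads with TopHat2 2.0.13 to GRCm38 and ran Cuffdiff (Cufflinks 2.2.1); the annotation release is not given in the sources used here. From this run the authors deposited the count of fragments per locus and read group without scaling, FPKM values corrected for fragment bias and reads matching several places, and a signal of fragments divided by library size factors, also as group means. Loci marked as holding too much data are listed at 0. The 43 loci without a completed estimate in the 6 libraries (37 skipped, 6 failed) were left out, and 4 more that lacked one at 2 h did not enter the fit. The table holds 81 read groups, of which 72 were not used. The table numbers the read groups of a time point without tying them to the listed libraries, so that "the first" library and so on are only names, in the order of the table.

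Counts of the 9 libraries at 0 h, 2 h and 4 h were fitted with edgeR 4.0.16 in R 4.3.3 (TMM, filterByExpr at a minimum count of 10, quasi-likelihood test, Benjamini-Hochberg adjustment). Loci were called at an adjusted p under 0.05 and at least 2-fold. Named loci are those with the largest log2 rise and fall, given a mean of 50 or more fragments and no overlap, and those with the largest change in CPM without overlap. Other values were computed with scipy 1.17.1, pandas 2.3.3 and numpy 2.4.6 under Python 3.11.15, and plots with matplotlib 3.10.9. Alternatives were DESeq2 1.42.0, limma 3.58.1 on log2(FPKM + 1) and log2(FPKM + 0.1), upper-quartile scaling, other filters and fold thresholds, removal of the length trend in 50 bins, the read group number as a block and leaving out single libraries. The fits were first tested on simulated counts, in which the changed loci were not drawn from the lowest counts. The edgeR rule called 27 of 67 loci changed 2-fold, 67 of 67 changed 4-fold and 66 of 66 changed 8-fold, with 2 false calls. Many loci with a true change close to 2-fold can thus be missed. Each p-value measures the spread between these libraries. The classes, rules and named loci were chosen with earlier results of these data known, and class values without called loci were added after seeing the data.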

Additional observations from a re-analysis of the deposited data

Results flagged for a closer look

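For all 4 named loci the change at 4 h differed from that at 2 h, by the edgeR contrast of 4 h against 2 h in the fit of 9 libraries. XLOC_025543 was higher by 3.71 on the log2 scale at 4 h than at 2 h (standard error 0.33, adjusted p = 2.33e-05 in edgeR's quasi-likelihood test), and all 3 libraries at 4 h lay above those at 2 h. XLOC_017764 was higher by 1.54 (standard error 0.18, edgeR adjusted p = 0.000119), again in 3 of 3 libraries. XLOC_034655 differed by -2.00 (standard error 0.23, edgeR adjusted p = 0.00013), below every 2 h library in 3 of 3. XLOC_001822 differed by -4.25 (standard error 0.93, edgeR adjusted p = 0.00592), while its 2 h libraries ranged from 0.9501 to 25.6 CPM and 1 library at 4 h, with 1.06 CPM, lay above the lowest of them. The loci were named for their change against 0 h, and the 4 h libraries are shared by both contrasts. XLOC_025543 could also pass the count filter only with its 4 h libraries, where it was high, so its contrast is a description.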

How the results depend on the processing

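The called loci numbered 641 rising and 436 falling, 1077 in all. They numbered 387, 115 and 502 with limma on log2(FPKM + 1), 2244, 1595 and 3839 with no fold minimum, 1404, 967 and 2371 at 1.5-fold, and 231, 51 and 282 with a 2-fold change as the null. The pseudocount of 1 lowers the fold of loci of low FPKM. Leaving out each library gave 600 to 665 rising, 372 to 453 falling and 972 to 1118 in all. DESeq2 gave 622 and 432, the 0 h and 4 h libraries alone 644 and 423, and removal of the length trend 658 and 426. Testing every locus with a count gave 748 and 561, a minimum of 10 counts in every library 515 and 311, log2(FPKM + 0.1) 573 and 323, and skipped loci kept at 0 645 and 436. That last fit takes the listed 0 of a skipped locus as a count, which it is not. It shared 641 rising and 435 falling loci with the main fit, and its further calls are not read.

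With limma on log2(FPKM + 1), the size classes other than rises of 4 to under 8-fold held 297, 16 and 10 rising and 102, 10, 2 and 1 falling loci, in order of size. By length, the same fit gave 25 falling loci in length class 1, and 26 rising and 10 falling in class 10. Without the third 0 h library, 52 loci rose in class 1 and 47 in class 10. From 10 to under 100 FPKM, 63 loci fell with upper-quartile scaling, against 38. In summed FPKM the share on rising loci changed by 1.18 percentage points in place of 6.58, and that on falling loci by -0.824 in place of -3.14. The change in loci detected was -131 at 1 FPKM, -216 at 0.1 FPKM and 261 at 10 FPKM. The change in the share of length class 10 was -0.0635 to 0.594 percentage points with each library left out, below 0 without the third 0 h library.

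Libraries of the same read group number deviated together little between 0 h and 4 h, with correlations from 0.00119 to 0.0723, against -0.0522 to 0.0401 for other numbers, and 2 of 6 libraries were closest to their own number. Between 0 h and 2 h the same numbers gave 0.0259 to 0.280, against -0.231 to 0.154 for other numbers. Between 2 h and 4 h they gave -0.0290 to 0.0526, against -0.0643 to 0.0472. Since not every pair was over 0.1, the numbers were not taken to pair the libraries, although the first and the third libraries of 0 h and 4 h deviated alike with length. The replicate block gave 636 rising and 437 falling loci. The named loci kept their direction and stayed past the adjusted p in each alternative that tested them, though with log2(FPKM + 1) the log2 change of XLOC_025543 was 2.48 and that of XLOC_001822 -2.68. Loci under 50 fragments had the largest spread (median SD of log2 CPM 0.35 at 0 h), which limits what their counts can show. The cause of these differences was not tested where no construction is named.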

Other observations

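The most counted of the skipped loci was counted in only some libraries. It held 923792 fragments (8.19% of the library) and 673445 (6.38%) in the first and the third 0 h library and 807130 (6.94%) in the third 4 h library, and it is listed at 0, as skipped, in the others. The loci kept here accordingly held 90.1%, 97.9% and 91.9% of the counted fragments at 0 h and 98.4%, 98.2% and 91.3% at 4 h. Of the 13 loci that were skipped in some libraries and counted in others, the other 12 were counted at 4 h only, with from 43 to 19776 fragments where counted. A listed 0 of these loci is not a measurement. They entered only the alternative fit with skipped loci kept at 0, and no change is read for them from it.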
